A study of Ovis aries with 6 samples.

Results

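Purkinje cells are the large inhibitory output neurons of the cerebellar cortex. The 9 genes described here, PCP2, PCP4, CA8, CALB1, PVALB, ITPR1, SLC1A6, SHISA8 and RORA, are known from these cells and were taken by gene name from the 26067 features of the deposited tables, of which 21457 carried a name. All 9 names were found once each. The genes were chosen by their levels in the breeds compared, that is, with the differences already known, so these levels are given as a description, without a test.

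Full-length cDNA was sequenced on a Nanopore instrument from 6 sheep samples labelled hypothalamus. In the HP group were 3 healthy small-tailed Han sheep, the high-reproduction breed of the study, and in the LP group 3 healthy Wadi sheep, its low-reproduction breed. All were described as similar in body composition. Breed and class cannot be told apart, and the labels used here give no age, sex, season or dissection batch. The number alone tied a table column to a sample, because columns and titles use different letters, and every statement on HP or LP rests on that match.

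A Purkinje cell receives glutamate from granule cells and from climbing fibres. At the granule cell synapse, metabotropic glutamate receptors act through G proteins and phospholipase C to make inositol trisphosphate (IP3), which opens the channel encoded by ITPR1 in the endoplasmic reticulum and releases calcium. Calbindin and parvalbumin, encoded by CALB1 and PVALB, bind that calcium. The protein of CA8 is a carbonic anhydrase relative without enzyme activity that binds the ITPR1 channel and lowers its response to IP3. PCP2 encodes a modulator of inhibitory G proteins, PCP4 a small protein that modulates calmodulin, and SLC1A6 the Purkinje cell glutamate transporter EAAT4. SHISA8 belongs to the Shisa family of membrane proteins, some of which are auxiliary subunits of AMPA receptors. RORA is a nuclear receptor that mouse Purkinje cells need for their maturation. Several of these genes are active elsewhere too, with PVALB in cortical interneurons, CALB1 in many neurons, and RORA and ITPR1 in many tissues.

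The libraries held between 2332067 and 2732911 counts in HP and between 1981644 and 2419526 in LP. With 3 counts taken as the limit that a count of 0 allows, a library could miss a gene at up to 1.00 to 1.19 CPM (counts scaled to library size with TMM factors) in HP and 1.36 to 1.56 CPM in LP. Here and below, a gene is called when its adjusted p in edgeR's comparison of HP with LP is under 0.05. Of 16 hypothalamic marker genes among the features, 12 had no count in any HP library and 9 none in any LP library, and the peptide genes GNRH1 and KISS1 were at 0 in all 6. This list summed to 94.3 to 146 CPM in HP and to 37.3 to 255 CPM in LP, with TRH (218, 399 and 317 counts in HP, none in LP) called higher in HP and SIX6 higher in LP. TRH alone made up nearly all of the sum in each HP library, so the sums of the groups rest on different genes. Anterior pituitary markers, 10 of 10 tested members of their list called higher in LP, summed to 58.2 to 145 CPM in HP and 47208 to 300048 CPM in LP. Granule cell markers, 14 of 14 called higher in HP, summed to 5243 to 6007 CPM in HP and 106 to 203 CPM in LP, with none at 0 in either group as a whole. Oligodendrocyte markers, none of 6 called in either direction, summed to 663 to 960 CPM in HP and to 19.0 to 5775 CPM in LP. LP replicate 3 had the highest sum, and without it all 6 were called higher in HP. The part that differences in tissue content play in the values below was not tested. In bulk tissue, fewer cells of a type and less RNA per cell cannot be told apart.

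Of the 9 genes, 8 had all their HP values above all their LP values, and ITPR1 was the exception. Of all tested genes, 33.9% had all HP values above all LP values. Together the 9 held 0.310% to 0.382% of all counts in the HP libraries and 0.0438% to 0.0842% in the LP libraries. RORA and PCP4 made up 70.8% to 74.8% of these counts in HP and 91.2% to 92.7% in LP. With them and ITPR1 set aside, the other 6 genes summed to 2143, 2413 and 2233 counts in HP replicates 1, 2 and 3, against 27, 43 and 16 in LP replicates 1, 2 and 3.

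**Figure D1:**
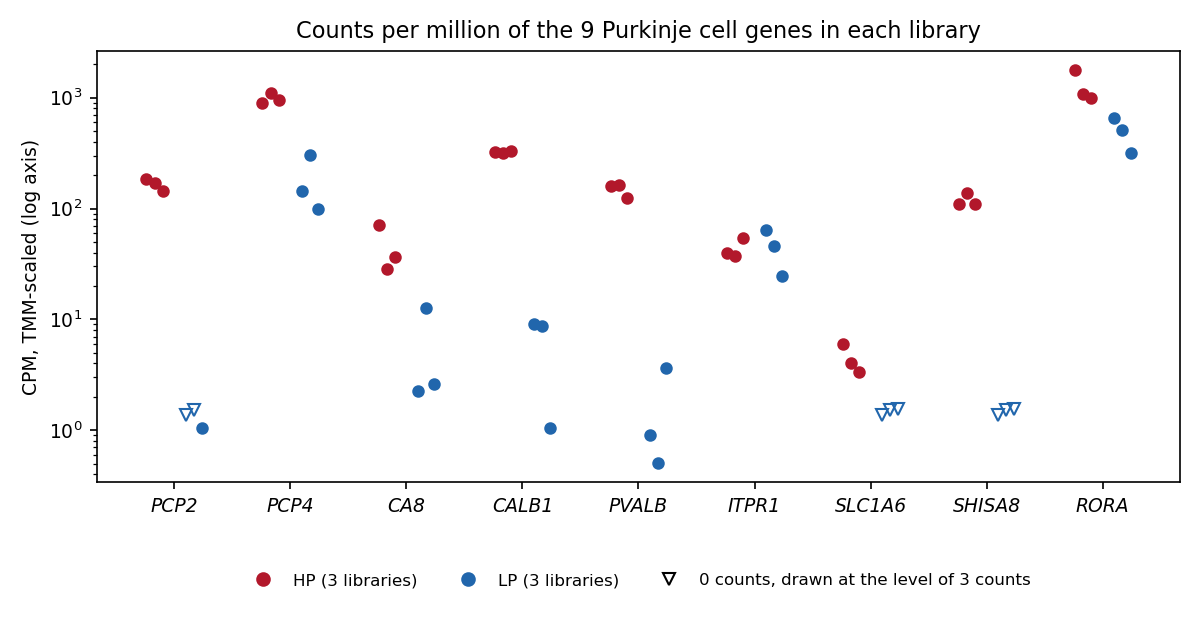
CPM scaled with TMM factors (log axis) of the 9 Purkinje cell genes in the 3 HP libraries (red, left of each name) and the 3 LP libraries (blue, right). Open triangles stand for libraries with 0 counts and are drawn at the level of 3 counts, so a point of 1 or 2 counts can lie below them. HP lies above LP for every gene except ITPR1, and the gap is smallest for RORA.

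PCP2, the gene most closely tied to Purkinje cells among the 9, had 465, 498 and 428 counts in HP replicates 1, 2 and 3, against 0, 0 and 2 in LP replicates 1, 2 and 3. The HP counts differed little from each other, and the few LP counts all came from LP replicate 3. The ratio of summed counts, scaled to the TMM-adjusted library totals, was 500.2 with a 95% counting interval of 138 to 4134. Without LP replicate 3 no LP count was left, and PCP2 was at least 115-fold higher in HP against a floor of 3 counts in each remaining LP library. Intervals and floors treat the counts as independent and leave out differences between sheep. Amplified reads are not independent molecules, so even counting error may be understated.

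HP libraries held 276, 407 and 326 counts of SHISA8, and the 3 LP libraries held none. It was at least 80.0-fold higher in HP, against a floor of 3 counts in each LP library. PCP4 was present in both groups, with 2248, 3262 and 2857 counts in HP, against 319, 590 and 191 in LP. The HP libraries lay close together, whereas the LP libraries spread over a 3.02-fold range of CPM with LP replicate 2 highest. Its log2 fold change, HP minus LP, was 2.44 (standard error 0.43), a 5.42-fold difference.

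The calcium-binding protein genes separated the groups widely. CALB1 had 806, 931 and 988 counts in HP, against 20, 17 and 2 in LP, which is 322 ± 7.91 CPM in HP and 6.26 ± 4.52 CPM in LP (SD, n = 3 each). Of the 9 genes it had the narrowest range in HP, 1.05-fold between the lowest and the highest CPM, and among genes counted in every LP library the widest range in LP, 8.70-fold. PVALB had 402, 481 and 371 counts in HP, against 2, 1 and 7 in LP. Their log2 fold changes were 5.66 (standard error 0.62) for CALB1 and 6.44 (standard error 0.56) for PVALB. The few LP counts lay in different libraries: LP replicate 3 had the most PVALB and PCP2 counts and the fewest CALB1 counts. Without it the PVALB log2 fold change was 7.57.

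CA8 was low in all libraries, with 179, 84 and 110 counts in HP, against 5, 25 and 5 in LP. HP replicate 1 stood above the other HP libraries, with 71.3 CPM against 28.4 and 36.8, and LP replicate 2 above the other LP libraries, with 12.8 CPM against 2.27 and 2.61. Its log2 fold change was 2.95 (standard error 0.70), or 4.18 without LP replicate 2. SLC1A6 was rarer still, with 15, 12 and 10 counts in HP, against none in any LP library, too few to enter the test across genes. It was at least 3.00-fold higher in HP, a bound set by its low counts.

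ITPR1, the channel that CA8 binds, did not follow the others in counts. It had 100, 111 and 161 counts in HP, against 142, 90 and 47 in LP, and the groups overlapped. Its log2 fold change was -0.04 (standard error 0.37). The sign of so small a value turned with the setting: it was 0.23 when scaled by library totals, 0.15 with low genes kept in and 0.04 with limma-voom. It stayed negative with RLE factors, another scaling (-0.08), and without genes above 1% of any library (-0.11). Leaving out each library gave values from -0.37 to 0.32.

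RORA had the most counts of the 9 in every library except HP replicate 2, where PCP4 had slightly more. It had 4426, 3207 and 2940 counts in HP, against 1435, 1011 and 614 in LP. HP replicate 1 stood above the other HP libraries, and the groups did not overlap. The log2 fold change was 1.37 (standard error 0.36), a 2.58-fold difference and the smallest of the 8 genes that lay apart.

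Across 13078 genes, HP and LP were compared with edgeR's quasi-likelihood method and p was adjusted after Benjamini and Hochberg. Of these genes, 27.1% were called higher in HP and 24.1% higher in LP. Of the 8 members tested, 7 were called higher in HP and none higher in LP. RORA was no longer called without HP replicate 1 or with the deposited TPM tested by limma, which also called ITPR1 higher in LP. Because the members were chosen with this comparison known, nothing is read from that count. Among all genes that passed, 52.9% were higher in HP, a share that moved to 63.8% when scaled by library totals and to between 31.7% and 36.2% with the deposited TPM tested by limma. The median log2 fold change of all genes was 0.02, against 0.28 with library totals and -0.31 with TPM at a pseudocount of 1.

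TPM, the authors' length-corrected unit, allowed levels to be compared between genes, as far as its length correction holds. In HP, RORA was highest at 1691 to 2934 TPM, followed by PCP4 at 522 to 737 TPM, PVALB at 89.8 to 99.0 TPM and PCP2 at 55.8 to 57.8 TPM. ITPR1 at 22.4 to 29.4 TPM and CALB1 at 23.7 to 32.3 TPM overlapped and did not differ beyond their spread. SHISA8 followed at 11.1 to 15.1 TPM, CA8 at 1.27 to 2.93 TPM and SLC1A6 at 0.443 to 0.623 TPM. Each of these levels, apart from the ITPR1 and CALB1 pair, lay wholly above the next. In LP the order was less sharp: RORA at 674 to 1600 TPM stood above PCP4 at 101 to 334 TPM, which overlapped with ITPR1 at 53.3 to 150 TPM, and the other 6 genes stayed at or below 3.22 TPM.

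The TPM values rest on a length correction that differed greatly among these genes. Dividing CPM, here scaled to library totals without TMM factors, by TPM gives the number of counts behind each unit of TPM. This number would be proportional to an assumed transcript length if TPM is counts over length. On this scale, with CALB1 set at 1 in HP replicate 1, CA8 stood at 1.79, SHISA8 at 0.73, SLC1A6 at 0.71, PCP2 at 0.24, PVALB and PCP4 at 0.13, ITPR1 at 0.10 and RORA at 0.044. A RORA count therefore weighed 22.5 times as much in TPM as a CALB1 count in that library. No source used here states whether the full length or one shortened by a constant was the divisor, and a shortened one raises the TPM of short transcripts most. The weight of RORA and its place at the top of the TPM order hold under the deposited correction only. Of the 10331 genes with at least 5 counts in every library, 14.5% had a lower value than RORA in HP replicate 1 and 80.5% a lower value than CALB1. By CPM, which ignores length, CALB1 stood above PCP2 and PVALB in HP, the reverse of their order by TPM.

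**Figure D2:**
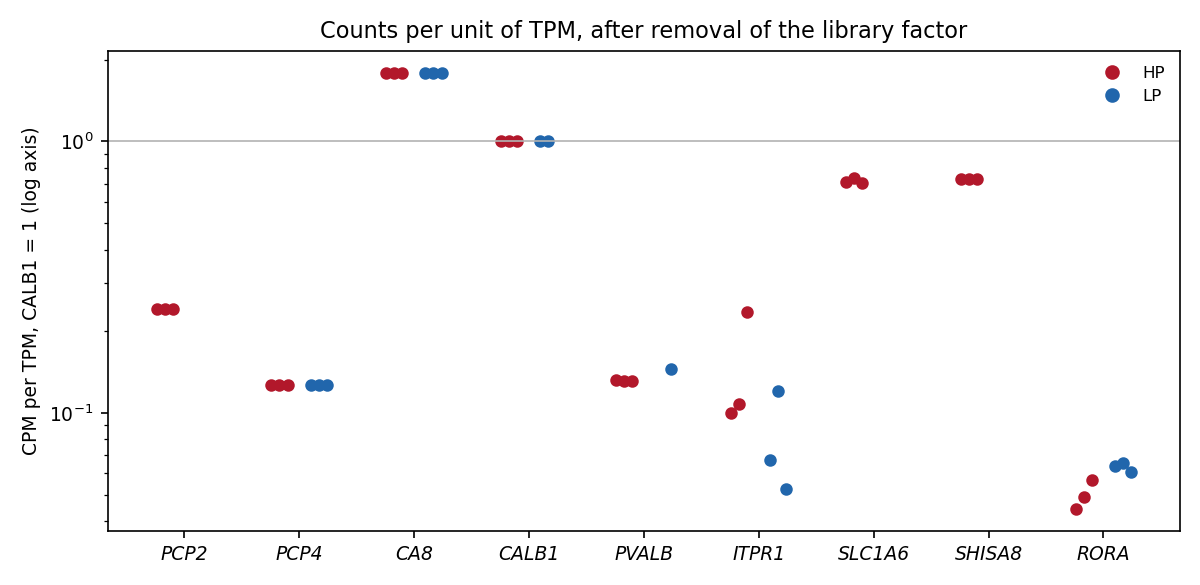
CPM per unit of TPM (log axis) for each of the 9 genes in HP (red, left) and LP (blue, right) libraries with at least 5 counts, after division by each library's factor and with CALB1 in HP replicate 1 set at 1. PCP4, CA8 and CALB1 hold a value constant to within 1%, whereas ITPR1 and RORA vary between libraries.

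The same quantity was constant across libraries for some members and not for others. After a factor for each library was taken out, it varied by less than 1% for PCP2, PCP4, CA8, CALB1 and SHISA8, in the libraries with at least 5 counts, and this was so for 50.8% of the 10331 genes with at least 5 counts in all 6. For ITPR1 it varied 4.49-fold, from 0.053 in LP replicate 3 to 0.24 in HP replicate 3. For RORA it varied 1.47-fold, and its 3 HP values, 0.044 to 0.057, lay below its 3 LP values, 0.061 to 0.065. A variation of over 1.5-fold was seen in 28.4% of those 10331 genes. Which transcripts the counts of ITPR1 and RORA were assigned to is not analysed here.

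The library factor also differed between the groups. Averaged over libraries, a unit of TPM stood for 2.03 times as many CPM in HP as in LP, by library totals without TMM factors. TPM gave smaller HP over LP ratios than TMM-scaled CPM for each member counted in LP. The ratio of group means was 3.19 by TPM and 5.42 by CPM for PCP4, 4.48 and 7.74 for CA8, 29.3 and 51.4 for CALB1, and 57.8 and 88.2 for PVALB. For RORA it was 1.89 by TPM and 2.58 by CPM. ITPR1 changed its pattern with the unit. It had 29.4, 27.98 and 22.4 TPM in HP, against 150, 53.3 and 60.3 TPM in LP. All LP values lay above all HP values, and LP was 3.31-fold higher by group means, where the counts overlapped.

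**Figure D3:**
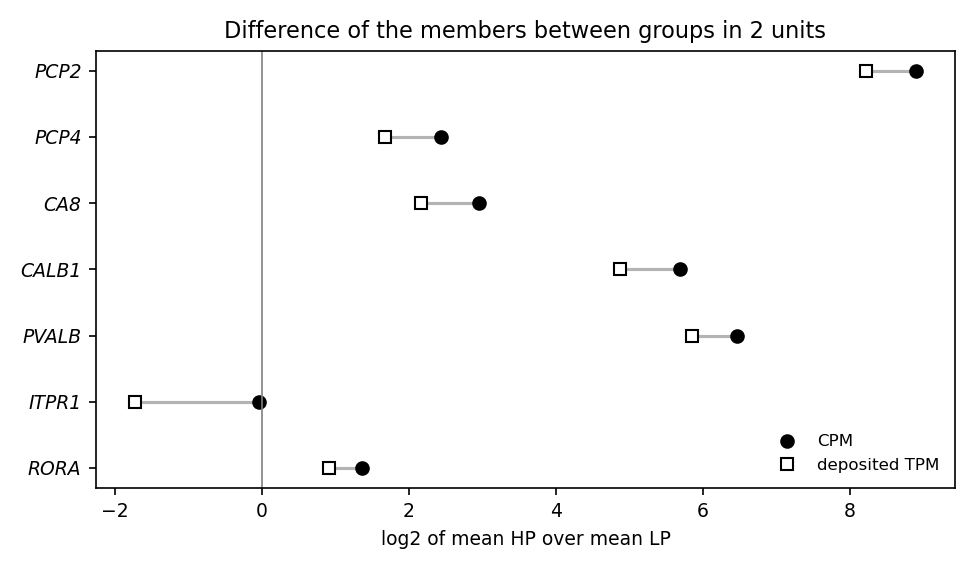
Log2 of the mean HP level over the mean LP level for the 7 members with counts in both groups, by TMM-scaled CPM (filled circles) and by the deposited TPM (open squares). Every TPM value lies to the left of its CPM value, and for ITPR1 it lies at -1.72 against -0.04.

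The proportion of each member to PCP2 was compared across the HP libraries. PVALB had 0.86, 0.97 and 0.87 counts for each PCP2 count in HP replicates 1, 2 and 3, the tightest of the 8 ratios. CALB1 had 1.73, 1.87 and 2.31, SHISA8 0.59, 0.82 and 0.76, and PCP4 4.83, 6.55 and 6.68. These ratios, with those of RORA and SLC1A6, stayed within a range of 1.5-fold, which was 6 of 8 genes. How many other genes keep within that range was not computed, so whether the count is particular to the members is not known. CA8 ranged 2.28-fold, with 0.38, 0.17 and 0.26, and ITPR1 1.75-fold, with 0.22, 0.22 and 0.38. With TPM in place of counts, RORA ranged 1.77-fold and ITPR1 1.34-fold, so the genes within 1.5-fold depend on the unit. By counts, HP replicate 1 had the highest ratio of RORA, CA8 and SLC1A6 and the lowest ratio of the other 5 genes. The granule cell markers summed to 6.54, 6.34 and 6.21 times the counts of the 6 members other than RORA, PCP4 and ITPR1, so this proportion was near constant in HP. In LP replicates 1, 2 and 3 it was 11.9, 5.98 and 25.1, on few counts of either kind.

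**Figure D4:**
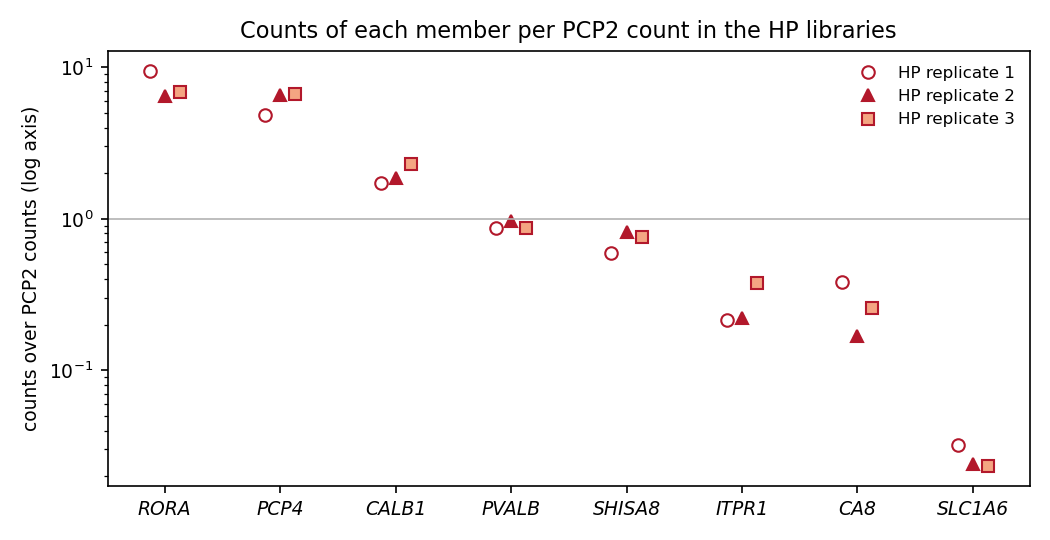
Counts of each member divided by the counts of PCP2 in the same HP library (log axis), with a marker for each of the 3 HP replicates. The 3 markers of PVALB lie closest together, and those of CA8 and ITPR1 are spread widest.

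Genes with profiles most like those of the members were sought among 9438 named genes with at least 50 counts, by the root mean square difference of log2(CPM + 1) over the 6 libraries after each gene's mean was removed, with the members left out of the search. For genes with a wide gap between HP and LP, a neighbour is mostly a gene with a like gap, and the members were chosen with that gap known. Where LP is at or near 0, as for PCP2, SHISA8, TRH and NEUROD6, the gap also depends on the pseudocount. The neighbours are therefore a description. LHX1, a transcription factor of developing Purkinje cells, was nearest to PCP2 with a difference of 0.18. It had 383, 476 and 391 counts in HP, against 0, 0 and 3 in LP. Next among the non-members came TRH (0.44), the thyrotropin-releasing hormone gene, the neuronal transcription factor gene NEUROD6 (0.50), the granule cell gene CBLN3 (0.52) and the vesicular glutamate transporter gene SLC17A7 (0.54), while the nearest member, SHISA8, stood at 0.38. TRH and NEUROD6 were also the nearest to SHISA8 (0.12 and 0.30). PVALB was nearest to the neuronal enolase gene ENO2 (0.15) and the granule cell gene FAT2 (0.21), closer than to any other member, the nearest of which was PCP2 (0.56). CALB1 was nearest to RBFOX3 (0.54) and the potassium channel gene KCNK10 (0.60). PCP4 was nearest to KCTD8 (0.16) and the stathmin gene STMN3 (0.17), CA8 to MTUS2 (0.41) and ZNF536 (0.41), and RORA to ATXN7L1 (0.12) and EML5 (0.14). ITPR1 was nearest to STK24 (0.077) and ZCCHC14 (0.12). No neighbours are given for SLC1A6, whose few counts leave a profile set by the pseudocount.

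A list of 30 other genes known from Purkinje cells, mostly in mouse, mostly had higher levels in HP. Of its 18 genes with enough counts for a test, 14 were called higher in HP and 1 higher in LP. The shares over all tested genes were 27.1% and 24.1%. Because the list was chosen with earlier results of these data known, this count is a description. Its median log2 fold change was 3.12 against 0.02 for all tested genes. The median is the same with ARHGEF33, at 0 in LP, set at its bound. Between 12 and 15 were called higher in HP when each library was left out in turn. PPP1R17, a phosphatase inhibitor gene of Purkinje cells, had 906, 1029 and 641 counts in HP, against 6, 8 and 2 in LP, a 115-fold difference (edgeR adjusted p = 0.000341). GNG13, a G protein gamma subunit gene, had 132, 197 and 160 counts in HP, against 0, 0 and 1 in LP. LHX1 was called as well. ARHGEF33, a gene for a guanine nucleotide exchange factor, had 66, 89 and 71 counts in HP, against none in LP, and was at least 18.0-fold higher. Without LP replicate 3, GNG13 and LHX1 also had no LP count left and were at least 39.8-fold and 102-fold higher.

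Genes of IP3 handling were also in that list. The phospholipase C gene PLCB4 had 416, 336 and 306 counts in HP, against 93, 70 and 70 in LP, and ITPKA, whose kinase phosphorylates IP3, had 47, 80 and 57, against 0, 1 and 4. ITPKA was 24.6-fold higher in HP, or 16.2-fold with LP replicate 1 left out and 73.2-fold with LP replicate 3 left out. For RGS8, a G protein regulator gene, the difference was 32.2-fold, against 77.5-fold without LP replicate 2 and 20.0-fold without HP replicate 3. Its call was lost with TPM and no filter (limma adjusted p = 0.0631). DNER, a Notch-related gene of Purkinje cells, had 2223, 2999 and 2356 counts in HP, against 465, 1036 and 719 in LP, and lost its call without HP replicate 1 or HP replicate 2 (edgeR adjusted p = 0.0532 and 0.0661). With TPM and limma it was not called either (adjusted p from 0.198 to 0.222), at 1.50-fold with a pseudocount of 1. ALDOC, the zebrin antigen that marks stripes of Purkinje cells and is also strong in astrocytes, had 5826, 6892 and 8409 counts in HP, against 105, 122 and 1529 in LP. Its call (edgeR adjusted p = 0.0471) was lost without any of HP replicates 1, 2 and 3 or LP replicates 1 and 2, with adjusted p from 0.0715 to 0.0975, and without LP replicate 3 the fold was 44.3 instead of 8.23.

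**Figure D5:**
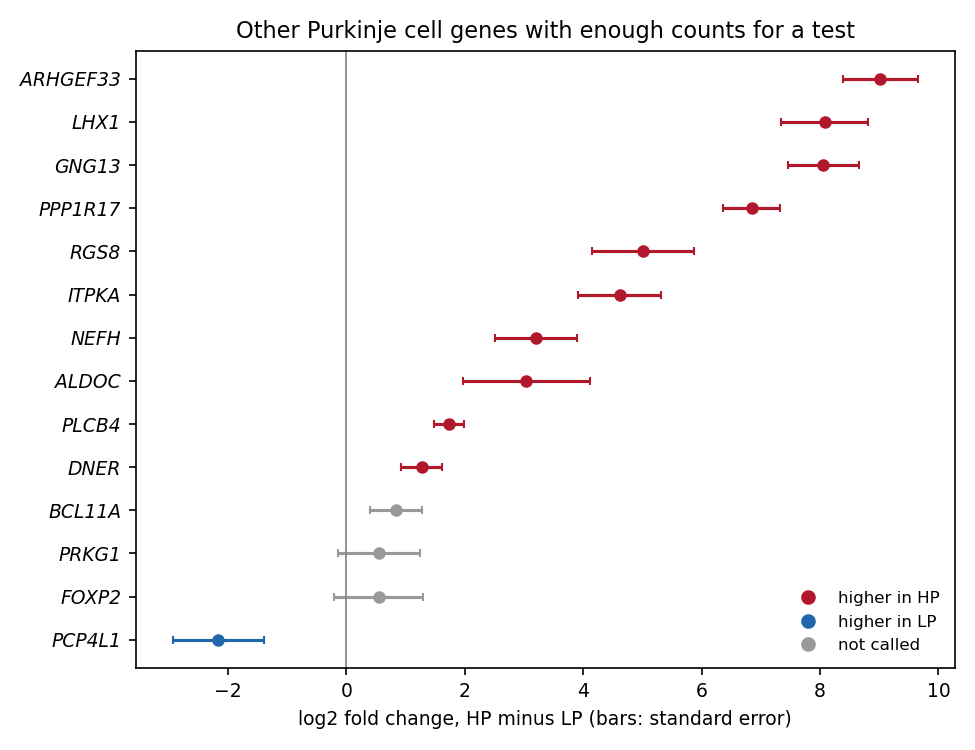
Log2 fold change, HP minus LP, of 14 of the 18 tested genes among 30 other Purkinje cell genes, with standard errors as bars. Red points were called higher in HP (10 genes), the blue point, PCP4L1, higher in LP, and the 3 grey points were not called. ARHGEF33, at 0 in LP, is drawn at its fitted value, which is no bound.

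Not every Purkinje cell gene was counted in HP. HOMER3, a scaffold gene of Purkinje cell spines, had 0, 0 and 3 counts in HP, against 1, 0 and 4 in LP. SCN4B had no count in any library and FOXP4 none in HP. SKOR2, a corepressor gene of Purkinje cells, had 15, 12 and 10 counts in HP, against 0, 1 and 0 in LP, too few for the test. FOXP2, a transcription factor gene of Purkinje cells and other neurons, had 69, 88 and 77 counts in HP, against 90, 5 and 25 in LP, and was called only without LP replicate 1 (edgeR adjusted p = 0.0457, against 0.565 with it). PRKG1 (edgeR adjusted p = 0.523) and BCL11A (adjusted p = 0.142) missed the threshold too, and BCL11A passed it without LP replicate 2 (0.0455) and with library totals (0.0492). EBF2, a transcription factor gene, had 2, 0 and 1 counts in HP, against 54, 2 and 10 in LP, and was not tested. Low counts at this depth do not show that a transcript is absent.

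In the IP3 and calcium pathway around ITPR1, 13 of 22 tested genes were called higher in HP and none higher in LP. The shares over all tested genes were 27.1% and 24.1%, and this list too was chosen with earlier results known. Its median log2 fold change was 1.54 against 0.02 for all tested genes. This list shares PLCB4, ITPKA and some other genes with the Purkinje cell list. CACNA1A, the P-type calcium channel gene, had 974, 959 and 1048 counts in HP, against 30, 15 and 27 in LP, a 29.9-fold difference (edgeR adjusted p = 0.000316). ATP2B2, a calcium pump of the plasma membrane, was 7.06-fold higher with 555, 601 and 621 counts in HP, against 64, 54 and 63 in LP. CAMK4, a calmodulin-dependent kinase gene also known from granule cells, was 11.7-fold higher, and RYR2, a calcium release channel gene, was 9.71-fold higher, or 15.4-fold without LP replicate 1. GRM5 was 46.3-fold higher, or 190.3-fold without LP replicate 3. With TPM and a pseudocount of 0.1 it was not called (limma adjusted p = 0.0543). GNAQ, a G protein that activates phospholipase C, had 1080, 1219 and 1121 counts in HP, against 652, 608 and 437 in LP, and missed the threshold (edgeR adjusted p = 0.0651), though it passed with library totals (0.0140), without a filter (0.0419) and with limma-voom (0.0412). ERP44, an endoplasmic reticulum protein gene, had 118, 97 and 103 counts in HP, against 126, 129 and 94 in LP, and passed only without LP replicate 3 (edgeR adjusted p = 0.0310, against 0.0757 with it). GNA11, the close relative of GNAQ, had 93, 194 and 194 counts in HP, against 113, 43 and 49 in LP, and passed only without LP replicate 1 (edgeR adjusted p = 0.0278, against 0.143 with it).

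Relatives of the members within their gene families went different ways. CA8 belongs to a group of inactive carbonic anhydrase relatives with CA10 and CA11, and both of these were called higher in HP. CA10 had 10262, 7273 and 6000 counts in HP, against 414, 447 and 411 in LP, a 13.6-fold difference (edgeR adjusted p = 0.000641). CA11 differed 7.25-fold (edgeR adjusted p = 0.00299), and 11.8-fold without LP replicate 2. The active enzyme gene CA2 had 120, 194 and 142 counts in HP, against 7, 22 and 163 in LP, and was not called, except without LP replicate 3 (edgeR adjusted p = 0.00165). ITPR2, the other IP3 receptor with counts, ran against the calcium pathway list with 79, 109 and 134 counts in HP, against 212, 159 and 210 in LP, and was 2.53-fold higher in LP (edgeR adjusted p = 0.00349). ITPR3 had 1 count in all, in LP replicate 3.

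PCP4L1, the relative of PCP4, had 11, 32 and 15 counts in HP, against 107, 10 and 72 in LP. Its call as higher in LP (edgeR adjusted p = 0.0489) was lost when any library other than LP replicate 2 was left out, with adjusted p from 0.0578 to 0.167, and with library totals, no filter, limma-voom or TPM, with adjusted p from 0.0561 to 0.151. CALB2, the calretinin gene of granule cells and other neurons, was 4.79-fold higher in HP with 18, 16 and 28 counts in HP, against 2, 3 and 4 in LP, a call lost with TPM and no filter (limma adjusted p = 0.0519). SHISA9 was 2.43-fold higher in HP (edgeR adjusted p = 0.0280). Its call was lost when any library other than LP replicate 2 was left out, with edgeR adjusted p from 0.0522 to 0.0904. The call was also lost with DESeq2 (adjusted p = 0.0536) or TPM and limma (0.359 to 0.403). Of the glutamate transporters, the glial gene SLC1A3 had 468, 573 and 677 counts in HP, against 15, 22 and 209 in LP. The other glial gene, SLC1A2, had 249, 349 and 424 counts in HP, against 27, 9 and 398 in LP. Neither was called (edgeR adjusted p = 0.0796 for SLC1A3 and 0.639 for SLC1A2), though SLC1A3 was with DESeq2 (0.0226) and limma-voom (0.0115). Both were called without LP replicate 3, the library with the highest oligodendrocyte and astrocyte sums, with folds of 22.0 for SLC1A3 and 13.6 for SLC1A2. SLC1A1 had 51, 62 and 82 counts in HP, against 8, 17 and 30 in LP, and missed the threshold (edgeR adjusted p = 0.0568), though it passed without LP replicate 3 (0.00629), with library totals (0.0350), without a filter (0.0365), with DESeq2 (0.0415) and with limma-voom (0.0289).

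Markers of other cerebellar cells moved with the members. All 14 granule cell genes were called higher in HP (12 to 14 when each library was left out), with a median log2 fold change of 5.83. Over all tested genes, 27.1% were called higher in HP and 24.1% higher in LP. The lists in this paragraph were chosen with earlier results known. NEUROD1 had 1910, 2406 and 1536 counts in HP, against 4, 3 and 2 in LP, and GABRA6, a GABA receptor subunit gene of granule cells, had 561, 560 and 547, against 1, 5 and 1. Of 7 tested genes of molecular layer interneurons and Golgi cells, 5 were called higher in HP and none higher in LP. They included GAD2, which makes GABA in Purkinje cells and interneurons alike and was 35.3-fold higher, and SLC32A1, the vesicular GABA transporter gene, with 141, 231 and 196 counts in HP, against 1, 0 and 0 in LP. SLC6A5, the glycine transporter gene of Golgi cells, had 49, 80 and 59 counts in HP, against 0, 3 and 0 in LP. LGI2, another tested gene of that list, was called only without LP replicate 3 (edgeR adjusted p = 0.00404). By contrast, 1 of 9 tested Bergmann glia and astrocyte genes was called higher in HP, namely FABP7, and none was called higher in LP. Without LP replicate 3, 8 of these 9 genes were called higher in HP, all but HOPX. Their list summed to 3813 to 5115 CPM in HP and to 137 to 10081 CPM in LP, with LP replicate 3 highest. Of 5 tested markers of forebrain parvalbumin interneurons, 2 were called higher in HP and 1 higher in LP (3 and 2 without LP replicate 3). So few genes cannot be set apart from the shares over all tested genes, 27.1% and 24.1%. The list of 8 summed to 476 to 834 CPM in HP and to 133 to 267 CPM in LP, and LHX6 was its only gene with no count in HP, with 4, 0 and 0 counts in LP. Whether PVALB counts came from Purkinje cells or from other neurons was not tested.

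The members share little in their annotation. In the deposited annotation, a calcium ion binding term was attached to CALB1, PVALB and PCP4, 3 of the 8 members with any Gene Ontology term, and to 3.21% of all features with a term. CALB1 and PVALB carry EF-hand domains, PCP2 a GoLoco motif, CA8 a carbonic anhydrase domain, SHISA8 a Shisa domain, SLC1A6 a domain of the glutamate transporter family, and RORA a nuclear receptor ligand-binding and zinc finger domain. RefSeq genes of ARS-UI_Ramb_v3.0 served for names and neighbours alone. There, PCP2 overlaps STXBP2 and LOC101122597, and the largest count of either in a library was 145. The strand setting of the counting was not given in the sources used here. ITPR1 overlaps LOC105603426 and LOC121817218, and PVALB overlaps TRNAE-UUC, none of which is named among the features. PCP4, CA8, CALB1, SLC1A6, SHISA8 and RORA overlap no other gene in that table.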

How the data were processed

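The authors deposited estimated counts per gene and TPM values for 6 libraries. Per the labels' protocols, libraries came from a Nanopore PCR-cDNA kit, and per the submitters' processing notes reads were aligned with minimap2 2.17-r941. Quantifier, build, annotation and strand setting: not given in the sources used here. Deposited TPM had the same sum in each library, and no source states its length correction.

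Estimated counts were rounded, filtered with filterByExpr (13078 genes left), scaled with TMM and tested with edgeR 4.0.16 in R 4.3.3 (quasi-likelihood test, two-sided, Benjamini-Hochberg adjustment over all tested genes). CPM of genes use TMM-scaled totals. Summed CPM of lists, and CPM divided by TPM, use library totals. DESeq2 1.42.0, limma 3.58.1, other scalings and filters, and leaving out each library were alternatives. In simulated counts for HP against LP over 11817 genes, of which 192 were changed, 68.8% of genes changed 4-fold and 5.21% of genes changed 2-fold were recovered. In the data, 6693 of 13078 genes passed the threshold, and recovery with so large a share of changed genes was not tested. Per the labels, each group held 3 sheep, with 1 library each.

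The 9 members and all gene lists were chosen with earlier results of these data known. Named genes were the members, up to 10 called and 5 uncalled genes of the Purkinje cell list, up to 6 called and 3 uncalled genes of the pathway and granule cell lists, family relatives with at least 50 counts, the abundant genes of other lists, and the genes nearest in profile to each member. A few more, such as those with a count near 0, were named after their values were seen. Motif searches, sequences and several list genes are not reported here.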

Additional observations from a re-analysis of the deposited data

How the results depend on the processing

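The number of genes past the threshold, 6693, ran from 4795 to 7912 when each library was left out, was 7479 without a filter on low counts, and lay between 6539 and 7337 under the other 9 settings. Called genes higher in HP numbered 12 to 15 in the Purkinje cell list, 12 to 14 in the IP3 and calcium pathway list and 12 to 14 in the granule cell list when each library was left out. With the deposited TPM and limma they numbered 13, between 9 and 11, and between 11 and 13. Members at least 2-fold higher in HP numbered 7, or 6 to 8 over all settings. ITPR1 had a log2 fold change of -1.54 with TPM and a pseudocount of 1, against -0.04 with counts. In HP, 7 of 8 neighbouring pairs in the order of levels were separate by TPM, 7 to 8 without each HP library and 4 by CPM. CPM lacks the length correction and also uses other library factors, and the part of each in this difference was not tested. The 8 tested members and 18 tested genes of the Purkinje cell list gave 416 values under alternatives. Among these, none reversed a called direction, 26 no longer passed the threshold and 6 newly passed it. These changes include RORA, no longer called, and ITPR1, newly called higher in LP, in each of the 3 TPM settings. Genes of the other lists are outside this count, and several of them also newly passed, such as SLC1A1, GNAQ and SLC1A3. No paired analysis was possible because the labels give no replicate number shared by the groups. The search for promoter motifs was not run. Depth limits SLC1A6, SKOR2 and the LP counts of PCP2 and PVALB.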
